A study of Homo sapiens with 4 samples.

Results

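Interferon-stimulated genes are the genes that cells switch on when interferon reaches them, and 29 of them were followed here in PC3 cells after knockdown of METTL3. The members were the rows of the deposited gene count table whose gene name was on a fixed list of 30 names. RIGI and DDX58 on that list are 1 gene, which the table gives as DDX58, so 29 of the 60544 genes in the table were members. PC3 is an established line of human prostate cancer cells, and METTL3 is the enzyme that places N6-methyladenosine on messenger RNA. Poly(A) RNA was sequenced in 4 libraries, 2 from PC3 cells labelled shNC (the control) and 2 from PC3 cells labelled sh812. The labels give no other treatment, time or genotype, so sh812, with no other arm to choose from, was taken to be the knockdown. A single knockdown label stands for the whole arm, and whether the cells were a clone or a pool is not given in the sources used here. Nothing in the labels says that replicates came from separate cultures, so p-values measure the spread between these libraries, which may be technical.

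Interferons are secreted proteins that bind receptors coupled to the kinases JAK1 and TYK2. The kinases activate STAT2, which joins IRF9 in the complex ISGF3, and this complex binds a response element with GAAA repeats near the start of its target genes. The targets detect viral RNA, block translation, degrade RNA, tag proteins with ISG15 or stop viruses at membranes, and some tumour cell lines express part of the programme with no interferon added. Interferon production itself starts with sensors such as RIGI and IFIH1, which recognise foreign or unmodified RNA.

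The response element was looked for in RefSeq promoter windows (GRCh38.p14), which run from 250 bases before to 50 bases after a gene's start. Of the 29 genes, 23 had an entry, and IRF7, IFIT2, OAS2, OASL, MX2 and USP18 had none. The letters GAAANNGAAA were searched on both strands, so that TTTCNNTTTC marks the other strand. They were present in 17 of the 23 genes (73.9%), against 4.38% of all 27305 genes with a window. The longer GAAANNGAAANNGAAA, which contains the shorter one, was present in 4 of the 23 (17.4%), against 0.187% of all genes. RIGI, STAT2, IRF9, OAS1, CMPK2 and XAF1 held neither in these windows. A match describes letters and is not evidence of binding.

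The 9 stretches below, of 60 bases each, lie before the gene's start in RefSeq. They show the 4 genes with the longer element and 4 genes that were lower in sh812 at an unadjusted edgeR p under 0.05. These latter 4 are IFITM1, IFI6, IFI44L and RSAD2. MX1, which was also lower at that threshold, had a match too but is not shown. IFIT1, whose level was nearly the same in both groups, stands beside them. RefSeq starts can lie inside the longer GENCODE gene models whose positions are given further on, as they do for ISG15, IFITM1, IFI44L and RSAD2. Capitals mark the matches, and each is written 5′ to 3′ on the gene's own strand. ISG15 is at chr1:1013365-1013424 (plus strand), HERC5 at chr4:88456975-88457034 (plus), IFIH1 at chr2:162318803-162318862 (minus) and BST2 at chr19:17405720-17405779 (minus). IFITM1 is at chr11:313975-314034 (plus), IFI6 at chr1:27672251-27672310 (minus), IFI44L at chr1:78620350-78620409 (plus), RSAD2 at chr2:6877607-6877666 (plus) and IFIT1 at chr10:89392495-89392554 (plus).
ISG15: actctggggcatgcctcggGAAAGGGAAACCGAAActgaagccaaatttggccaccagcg
HERC5: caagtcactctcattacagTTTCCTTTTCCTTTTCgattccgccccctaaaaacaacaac
IFIH1: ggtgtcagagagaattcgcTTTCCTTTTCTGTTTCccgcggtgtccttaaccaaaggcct
BST2: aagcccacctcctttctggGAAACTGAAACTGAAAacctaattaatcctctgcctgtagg
IFITM1: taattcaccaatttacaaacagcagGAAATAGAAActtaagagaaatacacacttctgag
IFI6: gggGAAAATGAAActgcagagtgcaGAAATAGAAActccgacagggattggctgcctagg
IFI44L: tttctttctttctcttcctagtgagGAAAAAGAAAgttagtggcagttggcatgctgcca
RSAD2: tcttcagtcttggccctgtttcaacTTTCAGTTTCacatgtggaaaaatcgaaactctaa
IFIT1: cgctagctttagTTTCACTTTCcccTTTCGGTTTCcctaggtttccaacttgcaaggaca

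Total counts ran from 31450648 to 37041330 per library. METTL3 had 1682 and 1379 counts in shNC and 269 and 313 in sh812, so both knockdown libraries were far below both controls. Its log2 fold change was -2.42 (SE 0.11; edgeR adjusted p = 5.54e-14), although 6.58% of its exon bases overlap TOX4 on the opposite strand. The 5 genes taken as markers of PC3 identity were KRT8, KRT18, EPCAM, VIM and CD44. Their levels summed to between 1408 and 1545 CPM, where CPM is the count scaled to library size. Of the 5, 2 were called higher and 0 lower. Both sh812 libraries lay above both controls in 3 of them and below in 2 (26.2% and 27.4% of all tested genes). The androgen-dependent prostate markers KLK3 and KLK2 were at 0 in all 4 libraries, and the summed level of the 5 markers of that type was 28.8 and 30.2 CPM in shNC and 11.5 and 13.9 CPM in sh812, with 2 of the 3 tested called lower. The 8 immune cell markers summed to between 1.08 and 1.53 CPM, with CD3E and CLEC4C, the latter a marker of the interferon-producing plasmacytoid dendritic cell, at 0 in every library. The 7 fibroblast and endothelial markers summed to 29.3 and 29.4 CPM in shNC and to 38.2 and 45.9 CPM in sh812, with 1 of the 5 tested called higher. Over all tested genes 5.43% were called higher and 5.42% lower. The part of these marker shifts in the results was not tested.

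PC3 control cells expressed most of the interferon-stimulated genes without any interferon named in the labels. Every library carries an shRNA label, so the level in PC3 cells without one is not known here. Only XAF1, a partner of the apoptosis inhibitor XIAP, was absent at this depth, with 0 and 1 counts in shNC and 0 and 0 in sh812. The other 28 genes passed the low-count filter. Levels between genes were compared as CPM per kilobase of exon in the shNC libraries, using the union of all annotated exons. By that measure 20 of the 28 lay at or above the median of the 16635 tested genes with a gene model, and 6 lay at or above the 75th percentile. With the length of the principal transcript in place of the exon union, set against genes that have such a transcript, these numbers were 15 and 3.

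ISG15, the ubiquitin-like protein that is conjugated to other proteins, stood highest at 197 ± 2.82 CPM per kb (SD, n = 2), the 99.1st percentile of tested genes. IFI6, a mitochondrial and endoplasmic reticulum protein that protects against cell death and flaviviruses, followed at 102 ± 4.39 CPM per kb. OAS3, the largest of the synthetases that make the activator of the nuclease RNase L, had 24.5 ± 1.18 CPM per kb. These 3 genes were separated from each other and from all genes below them by more than the gap between the shNC libraries.

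Below them the order was tighter. IFI44, a cytoplasmic protein of the interferon response, had 14.6 ± 0.382 CPM per kb. The membrane restriction factor IFITM1 had 13.3 ± 2.40 CPM per kb, and IRF7, the factor that amplifies interferon production, had 12.9 ± 0.496 CPM per kb. The shNC values of IFI44 and IFITM1 overlapped, as did those of IFITM1 and IRF7. The IFIT family members IFIT2 and IFIT3 came next at 8.51 ± 0.144 and 7.82 ± 0.391 CPM per kb. Among all 28 neighbouring pairs in the order of the 29 genes, 12 had overlapping shNC values and 16 did not. This order is that of the exon union. With the principal transcript length ISG15, IFI6, OAS3 and IFI44 kept places 1 to 4, and IFITM1 and IRF7 were at 6 and 8. IFIT1, PARP9 and IFI27 were then at 5, 7 and 9, while IFIT2 and IFIT3 were at 14 and 15.

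At the lower end stood BST2, the tether that holds budding virus at the cell surface, at 1.02 ± 0.239 CPM per kb. RSAD2, which encodes viperin, an enzyme that makes a chain-terminating nucleotide, had 0.883 ± 0.0459 CPM per kb. The nuclear-pore GTPase MX2 had 0.322 ± 0.0507 CPM per kb, and IRF9 had 0.131 ± 0.0315 CPM per kb, the 6.13th percentile. The DNA-binding subunit of ISGF3 was thus listed at a low level in cells where STAT2, its partner, had 7.35 ± 0.672 CPM per kb. IRF9 shares 1838 of its 3794 exon bases (48.4%) with another gene model on the same strand, AL136295.5. The principal transcript of IRF9 is also 1838 bases long, so the shared part may be that whole transcript. AL136295.5 had 5 and 5 counts in shNC and 13 and 5 in sh812. How the counting treated reads in shared exons is not given in the sources used here, so the level of IRF9 is uncertain.

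**Figure D1:**
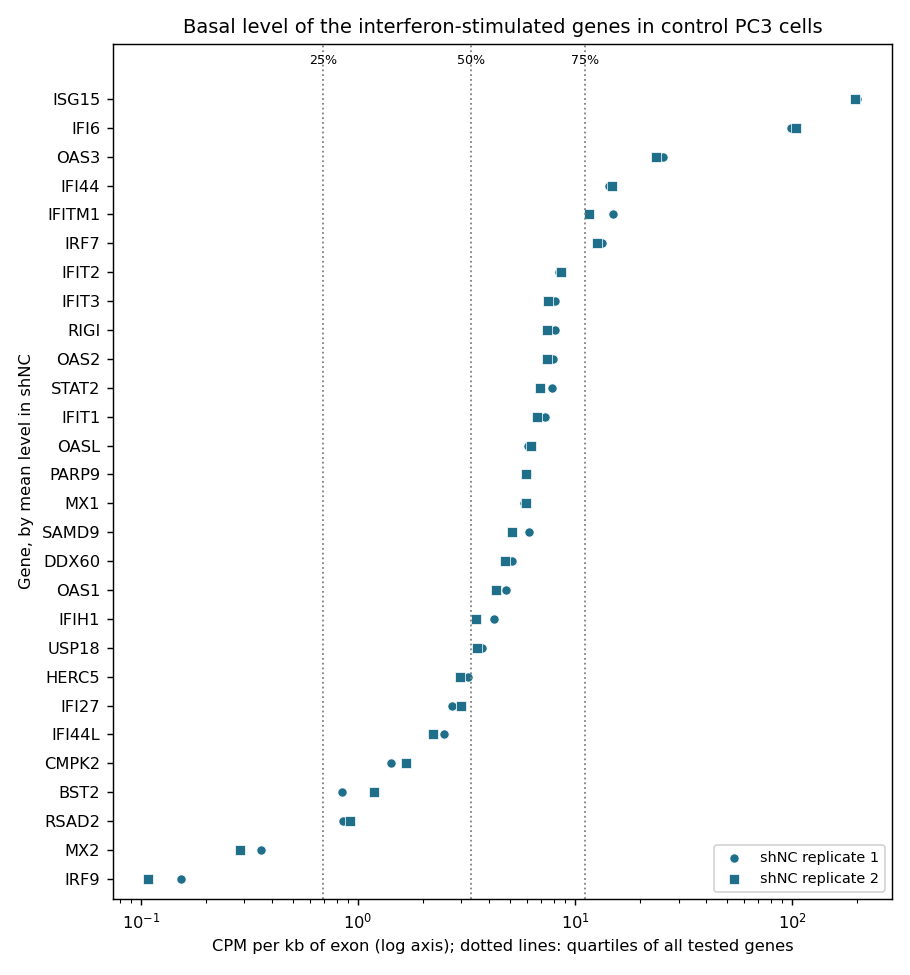
Level of each tested interferon-stimulated gene in the control libraries, as CPM per kilobase of exon on a log axis, with circles for shNC replicate 1 and squares for shNC replicate 2. Dotted lines mark the quartiles of the 16635 tested genes with a gene model; ISG15 and IFI6 lie far to the right, and MX2 and IRF9 lie left of the lowest quartile line.

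Knockdown of METTL3 was accompanied by few called changes in these genes. Of the 28 tested, 0 were called higher and 1, IFITM1, was called lower with the quasi-likelihood test of edgeR (adjusted p under 0.05, Benjamini-Hochberg over all 16802 tested genes). Over all tested genes 5.43% were called higher and 5.42% lower. At an unadjusted p under 0.05, 1 gene was higher (ISG15) and 6 were lower (IFITM1, MX1, MX2, RSAD2, IFI6 and IFI44L), against 11.9% and 12.9% of all tested genes. Both sh812 libraries lay above both shNC libraries in 1 gene and below them in 10 genes, where 26.2% and 27.4% of all tested genes did so. Fitted log2 changes had a median of -0.060 over the 28 genes and of -0.0056 over all tested genes. As these are bulk libraries, fewer cells expressing a gene and less RNA per cell cannot be told apart.

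Each interval, taken singly, gives a range for the change between these libraries. As the replicates may be technical, it need not cover the spread between cultures. Among the 26 tested genes with a mean of at least 3 CPM in shNC, the highest upper 95% bound on the log2 fold change was 0.39, in USP18, which is a 1.31-fold increase. The lowest lower bound among them was -1.01, in MX2. For the least abundant pair, BST2 and IRF9, the bounds were wider, from -0.996 to 0.72 and from -2.38 to 0.45. Of the 28 genes, 20 had a fitted change smaller than 0.2 in either direction.

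**Figure D2:**
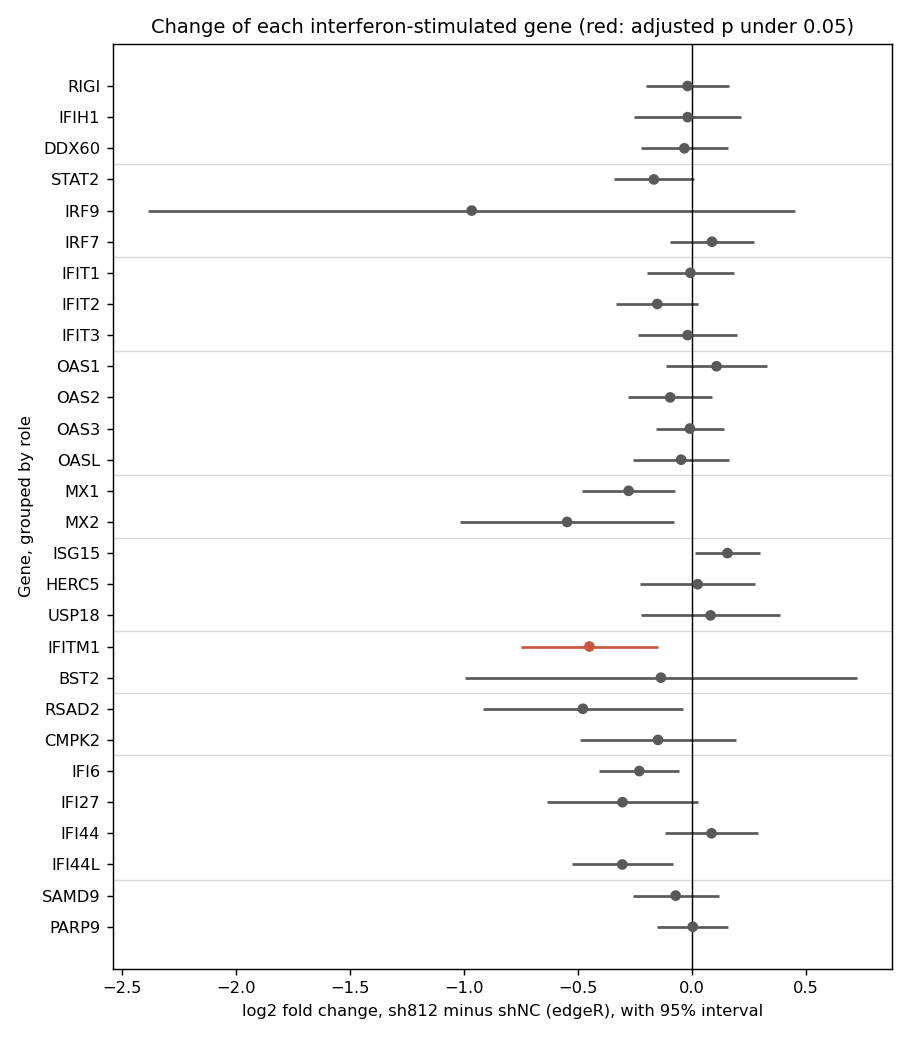
Log2 fold change of each tested gene, sh812 minus shNC, with its 95% interval from edgeR; genes are grouped by role and IFITM1, the called gene, is in red. Most intervals cross 0, and the interval of IRF9 is the widest, from -2.38 to 0.45.

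IFITM1, which blocks viral entry by changing the properties of membranes, had 16.2 and 12.5 CPM in the shNC libraries and 12.0 and 9.08 CPM in the sh812 libraries. Both knockdown libraries lay below both controls, but sh812 replicate 1 was close to shNC replicate 2. IFITM1 (ENSG00000185885; chromosome 11, 313506 to 315272, plus strand) fell by 0.45 on the log2 scale (SE 0.15; edgeR adjusted p = 0.0475), to 73.5% of the control mean. The call rested on single libraries: the log2 fold change was -0.25 (adjusted p = 0.356) without shNC replicate 1 and -0.26 (adjusted p = 0.457) without sh812 replicate 2. It was also lost with RLE size factors (adjusted p = 0.0523) and in DESeq2 (0.104). Over all alternatives the adjusted p of IFITM1 ran from 0.000258 to 0.457. IFITM1 shares 32.5% of its exon bases with IFITM2 on the same strand, and IFITM2 had a log2 fold change of 0.0071 (edgeR adjusted p = 0.972). BST2, the other membrane factor, had 36 and 42 counts in shNC and 41 and 32 in sh812, and the groups overlapped.

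The dynamin-like GTPases MX1 and MX2, which trap viral nucleocapsids, both had lower values in sh812. MX1 had 50.1 and 51.1 CPM in shNC and 47.9 and 35.6 CPM in sh812, so the distance from the controls lay mainly in sh812 replicate 2. Its log2 fold change was -0.28 (SE 0.10; edgeR adjusted p = 0.0716). MX2 had 4.67 and 3.73 CPM in shNC and 3.25 and 2.51 CPM in sh812. The groups did not overlap, and the log2 fold change was -0.55 (SE 0.23; edgeR adjusted p = 0.126). The 2 genes are neighbours on chromosome 21, 10.9 kb apart on the same strand.

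ISG15 was the single member above the controls in both knockdown libraries, and in 1 of them only just. It had 187 and 184 CPM in shNC and 225 and 188 CPM in sh812. The log2 fold change of ISG15 (ENSG00000187608; chromosome 1, 1001138 to 1014540, plus strand) was 0.16 (SE 0.070; edgeR adjusted p = 0.162). It was 0.0068 once the trend of counts with exon length (the union of all annotated exons) was taken out of every library. The ligase HERC5, which attaches ISG15, and the protease USP18, which removes it and restrains interferon receptor signalling, had fitted changes of 0.025 and 0.081, with overlapping groups.

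RSAD2 had 4.11 and 4.43 CPM in shNC and 3.05 and 3.07 CPM in sh812, a clear gap between groups with little spread within them. The log2 fold change was -0.48 (SE 0.21; edgeR adjusted p = 0.158), with 156 and 140 counts in shNC and 107 and 110 in sh812 behind it. CMPK2, a mitochondrial nucleotide kinase, is its divergent neighbour on chromosome 2, and their GENCODE gene models overlap at the starts. The RefSeq start used for the RSAD2 sequence above lies inside its longer GENCODE model, away from CMPK2. The counts of CMPK2 were 232 and 226 in shNC and 211 and 212 in sh812, a fitted log2 change of -0.15 (edgeR adjusted p = 0.642). Leaving out shNC replicate 2 gave -0.030, and leaving out shNC replicate 1 gave -0.26.

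Among the IFI6, IFI27 and IFI44 genes, IFI6 had 85.1 and 90.5 CPM in shNC and 84.0 and 65.6 CPM in sh812. As with MX1, sh812 replicate 1 was just below the controls and replicate 2 further away. The log2 fold change of IFI6 was -0.23 (SE 0.085; edgeR adjusted p = 0.0806), and it was -0.38 (adjusted p = 0.00308) once the length trend was removed. IFI44L, a paralogue of IFI44, had 25.4 and 22.6 CPM in shNC and 20.8 and 18.1 CPM in sh812, with no overlap. Its log2 fold change was -0.31 (SE 0.11; edgeR adjusted p = 0.0684). IFI44 starts 3.65 kb downstream of IFI44L on the same strand and had 29.2 and 30.3 CPM in shNC and 34.5 and 28.5 CPM in sh812. The IFI44 groups overlapped, with a fitted change of 0.085. The small mitochondrial protein IFI27 had 426 and 393 counts in shNC and 410 and 267 in sh812, so a single library set its fitted change of -0.30 (edgeR adjusted p = 0.245).

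The RNA sensors were nearly level. DDX60, a helicase that assists RIGI, had 34.7 and 32.0 CPM in shNC and 34.6 and 30.7 CPM in sh812, and had the smallest p of the 3 sensors. Its groups overlapped and its log2 fold change was -0.034 (SE 0.092; edgeR adjusted p = 0.874). RIGI, which senses triphosphate RNA ends, and IFIH1, which senses long double-stranded RNA, had fitted changes of -0.020 (95% interval -0.20 to 0.16) and -0.019 (-0.25 to 0.22).

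Among the transcription factors, STAT2 had 47.8 and 42.0 CPM in shNC and 40.7 and 39.4 CPM in sh812. The sh812 values lay just under the lower control, and the log2 fold change was -0.17 (SE 0.085; edgeR adjusted p = 0.225). For STAT2 it was -0.069 without shNC replicate 1 and -0.25 (adjusted p = 0.0323) without shNC replicate 2. IRF7 had 34.9 and 33.0 CPM in shNC and 38.4 and 33.8 CPM in sh812. Its groups overlapped, and the fitted change was 0.088 (edgeR adjusted p = 0.610). IRF9 had 22 and 13 counts in shNC and 5 and 13 in sh812, too few to place its change more narrowly than the interval above.

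IFIT1 binds viral RNA that lacks the host cap methylation, and the IFIT genes lie together on chromosome 10. IFIT2 had 34.5 and 35.3 CPM in shNC and 31.1 and 31.7 CPM in sh812. Both groups were tight and did not overlap, and the log2 fold change was -0.15 (SE 0.087; edgeR adjusted p = 0.293). IFIT3 had 21.4 and 19.9 CPM in shNC and 21.3 and 19.5 CPM in sh812, nearly the same pair of values in each group. The fitted changes of IFIT3 and IFIT1 were -0.019 and -0.0069.

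OAS1, OAS3 and OAS2 are neighbours on chromosome 12, with gaps of 5.13 and 5.15 kb, and OASL, which lacks the synthetase activity, lies elsewhere on it. OAS3 had 209 and 195 CPM in shNC and 221 and 181 CPM in sh812. The sh812 libraries therefore lay on either side of the controls, and the log2 fold change was -0.0095 (SE 0.072; edgeR adjusted p = 0.958). OAS2 had 49.7 and 46.4 CPM in shNC and 49.7 and 40.4 CPM in sh812, again with replicate 2 as the low library. Its fitted change was -0.096 (SE 0.090; edgeR adjusted p = 0.566), and those of OAS1 and OASL were 0.11 and -0.048.

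Of the remaining effectors, SAMD9, a restriction factor of poxviruses, had 42.2 and 35.3 CPM in shNC and 36.4 and 37.5 CPM in sh812. The sh812 values lay between the controls, with a fitted change of -0.072 (edgeR adjusted p = 0.693). PARP9, which acts with the ubiquitin ligase DTX3L, had a fitted change of 0.0032, the smallest of the 28.

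**Figure D3:**
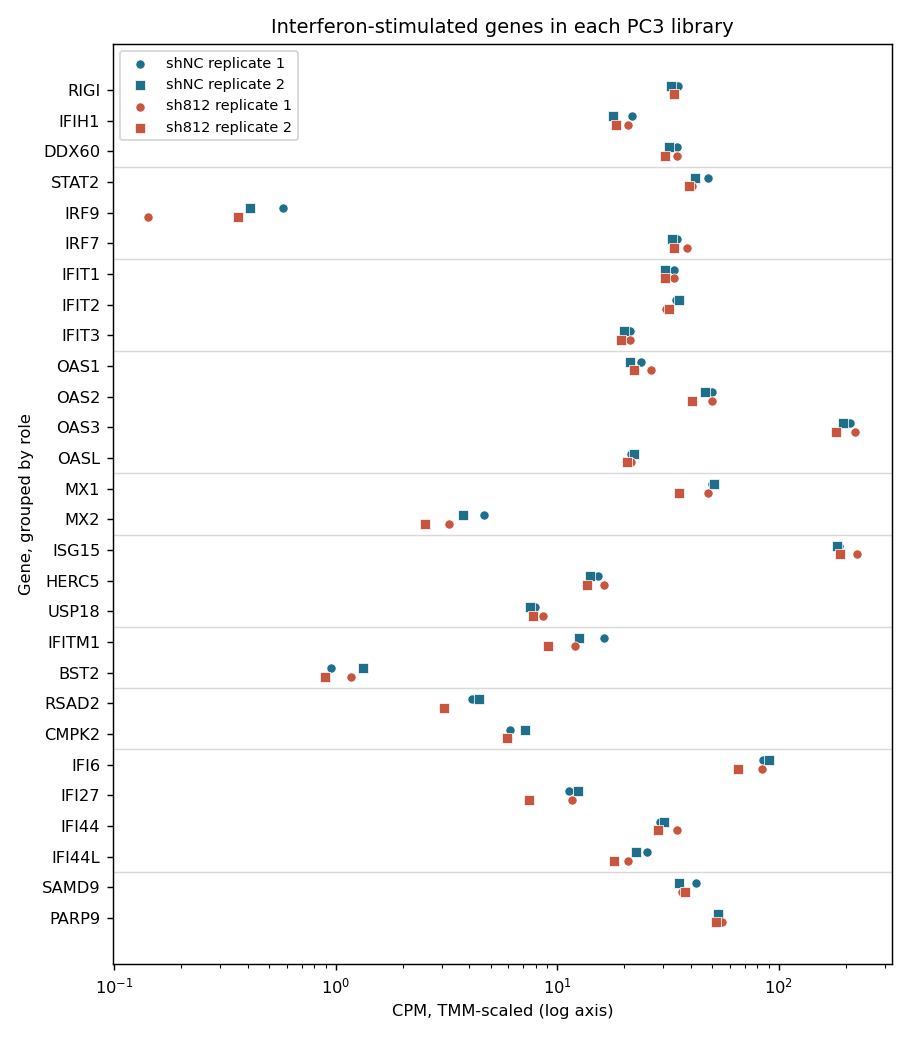
CPM of each tested interferon-stimulated gene in every library, on a log axis, with shNC in blue, sh812 in red, circles for replicate 1 and squares for replicate 2. Groups overlap for most genes; RSAD2, MX2 and IFIT2 are among those in which both sh812 points lie left of both shNC points.

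The 2 knockdown libraries differed from each other. The summed level of the 29 genes was 1108 and 1059 CPM in shNC, and 1138 and 978 CPM in sh812. By this sum sh812 replicate 1 was above both controls and replicate 2 below both. The sum leans on the most abundant genes and does not give the direction of most members. ISG15 alone had 187 and 184 CPM in shNC and 225 and 188 CPM in sh812. OAS3 had 209 and 195 CPM in shNC and 221 and 181 CPM in sh812. In sh812, replicate 2 was below replicate 1 in 23 of the 28 tested genes (82.1%), against 51.2% of all tested genes. The median log2 difference between these replicates was -0.18 over the 28 genes and -0.0040 over all tested genes. In shNC, replicate 2 was below replicate 1 in 19 of the 28 (67.9%), against 50.5% of all tested genes. The median log2 difference in shNC was -0.099 over the 28 genes and -0.0011 over all tested genes. Exon length, taken as the union of all annotated exons of a gene, moved with the difference between the controls. Across 12257 genes, Spearman's rho of this length with the difference between replicates was -0.30 in shNC and 0.031 in sh812. With the difference between the groups, sh812 minus shNC, it was also -0.30. Genes are not independent replicates, and the part of length in these values was not tested beyond the fits above.

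The sign of the median change over the 28 genes depended on which library was used. With sh812 replicate 2 set alone against both controls the median of the 28 genes was -0.13, and MX1, IFITM1, IFI6 and IFI27 were called lower and 0 higher (all tested genes: 1.82% lower, 1.46% higher). With sh812 replicate 1 alone it was 0.014, and 0 of the 28 were called in either direction (all tested genes: 2.26% lower, 1.55% higher). Without shNC replicate 2, STAT2, MX1, MX2, IFITM1 and IFI44L were called lower and ISG15 higher (all tested genes: 8.64% lower, 9.5% higher). Without shNC replicate 1, MX1 and IFI6 were called lower and ISG15 higher (all tested genes: 5.16% lower, 5.24% higher). These shares differ between the fits, so the counts of members are not comparable across them. In such fits the lone library of a group is assumed to vary like the others. Over these 4 fits RSAD2 ran from -0.53 to -0.42 and IFIT2 from -0.17 to -0.13, so neither changed sign, and neither was called in any of them. Ranges wider than that of RSAD2, with no change of sign, were those of IRF9 (-1.78 to -0.45), MX2 (-0.74 to -0.37), IFI27 (-0.66 to -0.018) and IFITM1 (-0.66 to -0.25). So were those of MX1 (-0.51 to -0.080), IFI6 (-0.42 to -0.065), IFI44L (-0.41 to -0.21) and ISG15 (0.020 to 0.28). The same held for CMPK2 (-0.26 to -0.030), STAT2 (-0.25 to -0.069) and USP18 (0.0098 to 0.15).

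**Figure D4:**
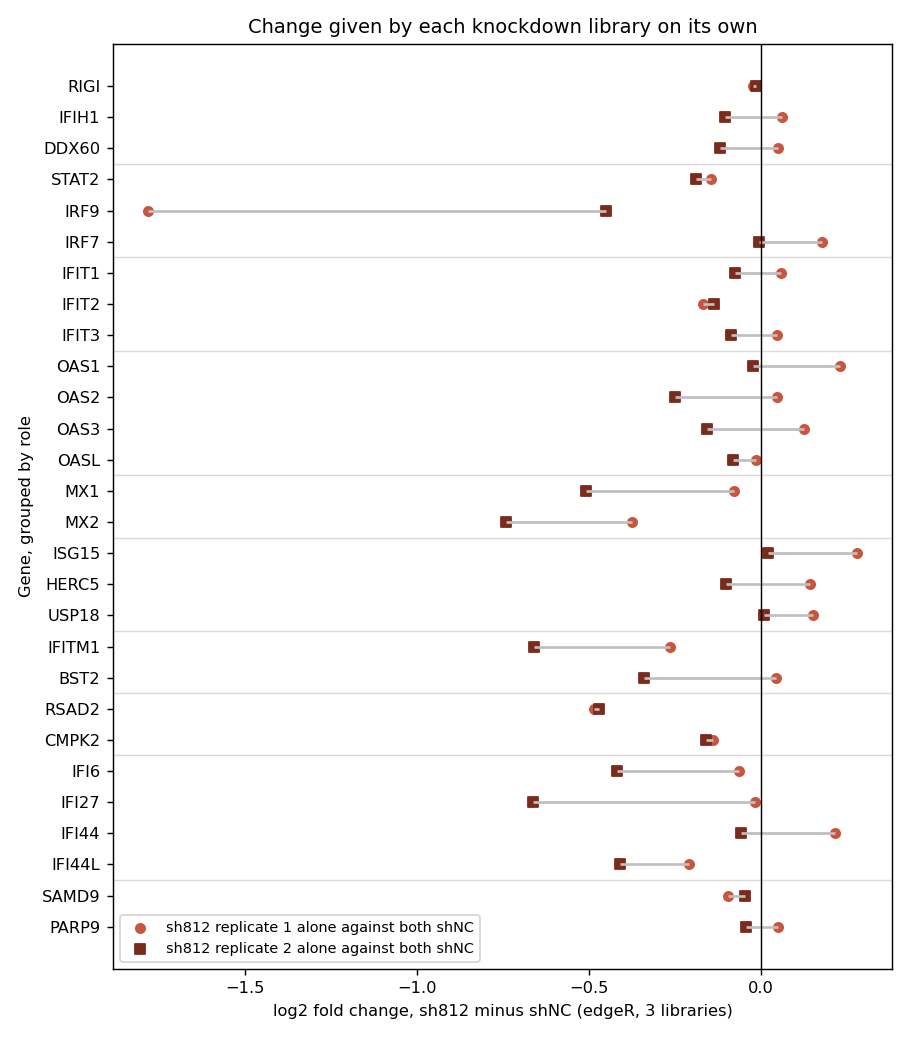
Log2 fold change of each tested gene with sh812 replicate 1 alone (circles) or sh812 replicate 2 alone (squares) against both shNC libraries, from edgeR on 3 libraries. The squares lie left of the circles for most genes, with medians of -0.13 and 0.014.

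The rest of the interferon pathway was read from 6 lists with 94 genes outside the 29. Of 21 interferon ligand genes, 17 had 0 counts in all 4 libraries, which allows up to 3 counts per library, or between 0.0791 and 0.0949 CPM. IFNB1, the ligand most cells make on viral infection, had 2 and 1 counts in shNC and 2 and 0 in sh812. IFNA1 had 0 and 4 counts in shNC and 0 and 2 in sh812, and IFNL1 had 0 and 4 in shNC and 2 and 0 in sh812. The only ligand that passed the low-count filter was IFNE, an epithelial interferon. It had 26 and 10 counts in shNC and 30 and 27 in sh812, with a fitted change of 0.66 (edgeR adjusted p = 0.508).

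Receptors and their kinases were all tested, and 0 of 9 were called, where 5.43% of all tested genes were called higher and 5.42% lower. Their fitted changes ran from -0.22 to 0.18. IFNAR2 and IL10RB, named after their values were seen, had only 29 to 42 and 9 to 26 counts per library. They share 44.2% and 38.1% of their exon bases with a readthrough model on the same strand that had 0 counts, so their levels are uncertain. Of the 13 genes that sense nucleic acid upstream of interferon, 11 were tested and 0 were called (5.43% and 5.42% over all tested genes). The other 2 were DHX58, with 3 counts or fewer in every library, and ZBP1, with 4 counts in sh812 replicate 2 and 0 elsewhere.

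Single genes among the other factors moved, where 5.43% of all tested genes were called higher and 5.42% lower. Calls in the pathway lists were read from the main edgeR fit alone. They were not checked under other scaling, with the length trend removed or with a library left out. IRF3, which turns on interferon genes after sensing, had 60.1 and 72.4 CPM in shNC and 80.8 and 77.5 CPM in sh812. IRF3 rose by 0.26 on the log2 scale (SE 0.079; edgeR adjusted p = 0.0353), the 1 call among 5 other STAT and IRF factors. It overlaps BCL2L12 on the opposite strand over 19.3% of its exon bases. SOCS3, a feedback inhibitor of cytokine receptors, had 88.3 and 92.6 CPM in shNC and 59.8 and 65.0 CPM in sh812, a wide gap. SOCS3 fell by 0.54 on the log2 scale (SE 0.071; edgeR adjusted p = 1.64e-05), and was the 1 gene called among 5 inhibitors of interferon signalling.

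Among 41 further interferon-stimulated genes outside the 29, 39 were tested, 1 was called higher and 5 lower (5.43% and 5.42% over all tested genes), with a median log2 fold change of -0.029. GBP1, a GTPase that is induced chiefly by interferon gamma, had 461 and 471 counts in shNC and 249 and 278 in sh812. GBP1 fell by 0.86 on the log2 scale (SE 0.14; edgeR adjusted p = 0.000234), and the groups were far apart. EPSTI1 had 18 and 10 counts in shNC and 0 and 0 in sh812, at least 4.67-fold lower against a floor of 3 counts per library (edgeR adjusted p = 0.00546). CXCL11, a chemokine that attracts T cells, had 40 and 24 counts in shNC and 6 and 10 in sh812, and fell by 2.00 on the log2 scale (SE 0.61; edgeR adjusted p = 0.0348). The other 2 genes called lower were LGALS3BP and LAMP3. PSMB8, an immunoproteasome subunit, had 41.0 and 47.9 CPM in shNC and 54.6 and 53.0 CPM in sh812, and rose by 0.28 on the log2 scale (SE 0.083; edgeR adjusted p = 0.0319). No test compared these lists with each other.

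**Figure D5:**
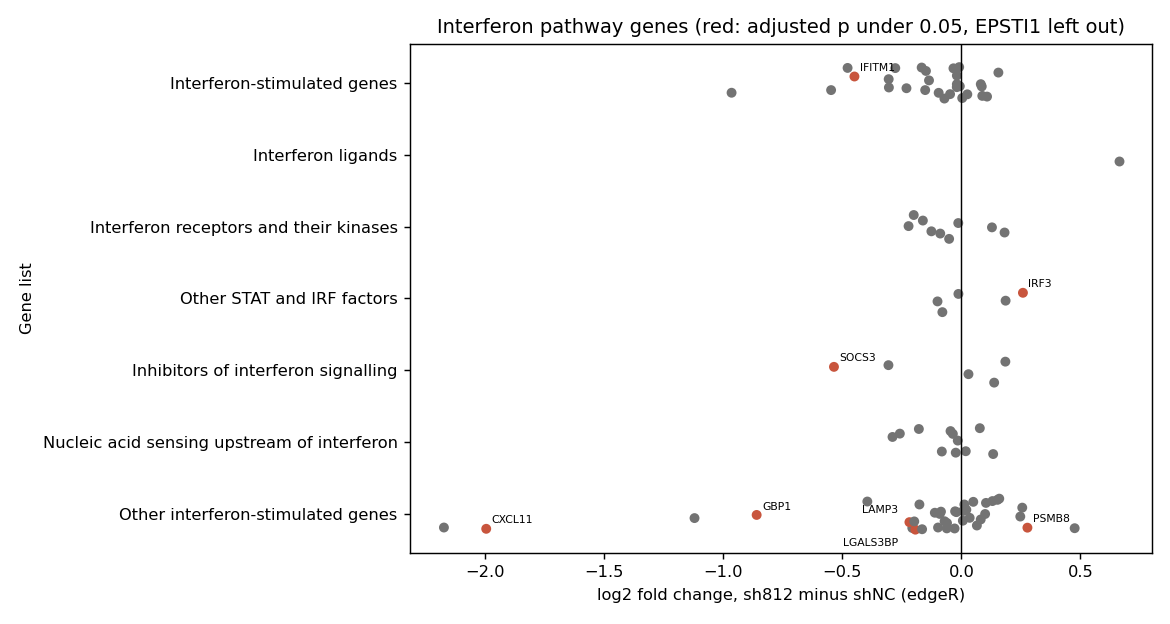
Log2 fold change, sh812 minus shNC, of every tested gene in the interferon-stimulated group and in the 6 further interferon lists, with genes at an adjusted p under 0.05 in red and named; vertical scatter within a list has no meaning. EPSTI1 is left out because its fitted fold depends on the prior count; CXCL11 and GBP1 lie far left at -2.00 and -0.86, and IFITM1 is the red point among the 28.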

How the data were processed

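The authors deposited raw gene counts for 4 libraries of PC3 poly(A) RNA. Strand was kept with dUTP, per the labels' protocols. Tools named in the submitters' processing notes are fastp, STAR 2.7.1a, featureCounts and DESeq2, with build hg38. The annotation release and the strand and overlap settings of the counting are not given in the sources used here. Testing used edgeR 4.0.16 under R 4.3.3 (TMM scaling, filterByExpr, glmQLFit and glmQLFTest, no covariate), with Benjamini-Hochberg adjustment over 16802 genes, and called at an adjusted p under 0.05. CPM values are TMM-scaled. Positions, exon lengths and overlaps were read by Ensembl identifier from GENCODE 29 (GRCh38), and promoter sequences from RefSeq.

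The members and lists were chosen with earlier results of these data known. Values in every library are given for called members, the 8 highest per length, those with an unadjusted p under 0.05 and the smallest p of each role. Alternatives were RLE, upper quartile or no scaling factors, other filters, DESeq2 1.42.0, limma-voom (limma 3.58.1), a replicate block, a prior count of 2, removal of the length trend and each library left out. Principal transcript lengths were added after seeing the data. The scripts were tested on simulated data. Replicates differed by more than sampling noise (chi-square per gene 8.43 in shNC and 4.51 in sh812).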

Additional observations from a re-analysis of the deposited data

How the results depend on the processing

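METTL3 stayed called under every alternative run (log2 fold change -2.52 to -2.33). The number of interferon-stimulated genes called lower, 1 as reported, was 0 with RLE factors and in DESeq2. It was 2 with a mean CPM of at least 1, with the length trend removed and in limma-voom, 3 with no filter and 4 with library size alone. Genes called lower in all were 910 of 16802 as reported, 867 with RLE factors and 690 in DESeq2. They were 1061 of 13517 with a mean CPM of at least 1, 844 with the length trend removed, 930 in limma-voom and 980 of 29783 with no filter. With library size alone 561 genes in all were called higher and 1328 lower, 29.7% higher against 50.1%. The replicate numbers share nothing in the labels, and deviations of same-numbered libraries correlated at 0.016. With the replicate block, 4 members were called lower (MX1, IFITM1, IFI6 and IFI44L), among 1003 genes called higher and 998 lower. Leaving out 1 library gave 0 to 5 members called lower, 0 to 1 higher, 261 to 1703 genes higher and 326 to 1549 lower, and a member median of -0.13 to 0.014. Without either sh812 library the fewest genes were called (261 and 326 without replicate 1, 278 and 404 without replicate 2). With principal transcript lengths, 15 members were at or above the median and 3 at or above the 75th percentile.

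Among the 389 values of single members under alternatives, 29 changed sign, all in 15 members that were not called. With the length trend removed these were DDX60 (0.0048), OAS3 (0.049), USP18 (-0.0099) and IFI44 (-0.0091). With library size alone they were HERC5 (-0.021) and PARP9 (-0.042), and PARP9 was -0.0023 with a mean CPM of at least 1. Leaving out 1 library gave ranges that crossed 0 of -0.069 to 0.040 (RIGI), -0.14 to 0.13 (IFIH1), -0.12 to 0.049 (DDX60), -0.0069 to 0.18 (IRF7), -0.076 to 0.060 (IFIT1), -0.086 to 0.045 (IFIT3), -0.024 to 0.23 (OAS1), -0.25 to 0.045 (OAS2), -0.16 to 0.12 (OAS3), -0.10 to 0.14 (HERC5), -0.36 to 0.12 (BST2), -0.058 to 0.22 (IFI44), -0.19 to 0.067 (SAMD9) and -0.043 to 0.048 (PARP9). The cause was not tested. IRF9 and BST2 rest on 5 to 42 counts a library, and their intervals are the widest of the members.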
